A study of Rattus norvegicus with 9 samples.

Results

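Genes of mitosis and the spindle were measured in whole bone of the rat. A list of 54 genes was taken, and 47 of them were measured, of 14217 genes on the array. A gene counted as measured where a probe set named it alone, and the brightest such probe set over the 9 arrays (by mean log2 signal) stood for the gene. Anln and Kpna2 were named only by probe sets that also name another gene, and Nek2, Tpx2, Ndc80, Kif4a and Ncapg were named by none. Skull bone (calvaria, 4 arrays) was compared with limb bone (ulna, 5 arrays), both untreated and both from male CD rats with a labelled weight of 110 g and no stated age. The study's methods state that soft tissue was taken off, along with epiphyses in the limb or sutures in the skull, and that each extract pooled a group of rats. They do not mention removal of marrow for these extracts. A replicate is therefore a pool of animals, not 1 animal. The methods name the groups of rats for skull and limb bones together. Whether a skull array and a limb array share a pool is not stated, and the sites were compared as unpaired. The comparison asks how far basal expression differs between bones with separate embryonic origins and mechanical loads. A further tissue field of ulna 1, 2, 3 and 4 names the calvaria, against their titles and source names. Hoxa9, a patterning gene of the trunk and limb, gave 2.17, 4.80, 1.82 and 2.44 signal units in the skull, against 69.0, 77.7, 61.7, 79.0 and 60.4 in the limb, so all 5 arrays titled ulna stood together.

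Mitosis separates copied chromosomes into 2 daughter nuclei. Cyclin-dependent kinase 1 with its cyclins starts it, Aurora and Polo-like kinases build the spindle, and kinetochores fasten chromosomes to microtubules while a checkpoint holds the cell until every pair is attached. The anaphase-promoting complex (APC/C) then marks securin and the cyclins for destruction, sister chromatids part, and the midzone and contractile ring divide the cell. In bone these transcripts are carried by dividing cells, which include marrow precursors of blood as well as precursors of bone cells, and transcription of many of them is timed by the DREAM, MYB-MuvB and FOXM1 complexes through a promoter element known as the CHR (cell cycle genes homology region), often beside CCAAT boxes bound by NF-Y.

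Promoters are shown because these elements are known in many genes of this kind, though not every listed gene holds them. RefSeq promoters of the GRCr8 assembly (250 bases before the annotated start and 50 after it, 300 in all) were found for 41 of the 47 measured genes, as 42 sequences since Kif2c has 2. Aurkb, Ccna2, Foxm1, Incenp, Racgap1 and Ube2c were not matched. Cdk1, Ccnb2, Hmmr and Kif23 hold both elements, Cdc25b a CCAAT box alone and Melk neither. All 6 were chosen after their values and matches were seen. Each is written 5′ to 3′ on its own strand, with matches on either strand in capitals: the CHR letters TTTGAA, the other CHR form, which reads TTTAAA, and the box bound by NF-Y, which reads CCAAT. A box on the opposite strand appears as ATTGG here.
Cdk1, chr20:19265043-19265342, + strand: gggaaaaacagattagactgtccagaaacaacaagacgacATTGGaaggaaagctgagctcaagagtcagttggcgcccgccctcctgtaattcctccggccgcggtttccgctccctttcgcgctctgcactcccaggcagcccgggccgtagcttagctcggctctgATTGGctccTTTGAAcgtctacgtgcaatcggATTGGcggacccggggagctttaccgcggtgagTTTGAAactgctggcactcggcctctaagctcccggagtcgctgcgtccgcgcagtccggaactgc
Ccnb2, chr8:79981609-79981908, - strand: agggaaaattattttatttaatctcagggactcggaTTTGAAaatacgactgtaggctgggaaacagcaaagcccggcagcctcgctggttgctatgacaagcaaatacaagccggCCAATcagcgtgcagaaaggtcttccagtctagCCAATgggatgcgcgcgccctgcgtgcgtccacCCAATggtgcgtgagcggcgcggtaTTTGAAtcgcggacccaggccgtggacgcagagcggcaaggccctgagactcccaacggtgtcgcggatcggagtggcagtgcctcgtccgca
Hmmr, chr10:25665166-25665465, - strand: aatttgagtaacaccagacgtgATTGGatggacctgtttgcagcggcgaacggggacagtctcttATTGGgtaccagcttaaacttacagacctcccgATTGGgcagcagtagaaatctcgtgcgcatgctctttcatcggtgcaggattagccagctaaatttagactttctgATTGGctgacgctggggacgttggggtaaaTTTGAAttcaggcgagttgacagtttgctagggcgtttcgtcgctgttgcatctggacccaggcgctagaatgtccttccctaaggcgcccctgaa
Kif23, chr8:71320535-71320834, - strand: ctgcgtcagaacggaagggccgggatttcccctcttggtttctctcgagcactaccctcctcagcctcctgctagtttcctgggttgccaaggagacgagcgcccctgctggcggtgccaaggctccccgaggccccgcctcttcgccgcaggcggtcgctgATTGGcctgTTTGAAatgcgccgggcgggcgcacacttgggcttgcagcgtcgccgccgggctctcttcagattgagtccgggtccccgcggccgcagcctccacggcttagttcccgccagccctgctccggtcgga
Cdc25b, chr3:138859923-138860222, + strand: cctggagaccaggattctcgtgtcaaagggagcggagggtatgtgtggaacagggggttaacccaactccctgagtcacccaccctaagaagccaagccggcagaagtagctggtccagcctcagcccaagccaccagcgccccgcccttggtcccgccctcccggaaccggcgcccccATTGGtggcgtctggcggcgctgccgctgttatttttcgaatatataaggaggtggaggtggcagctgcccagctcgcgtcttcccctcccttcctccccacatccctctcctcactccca
Melk, chr5:63335901-63336200, + strand: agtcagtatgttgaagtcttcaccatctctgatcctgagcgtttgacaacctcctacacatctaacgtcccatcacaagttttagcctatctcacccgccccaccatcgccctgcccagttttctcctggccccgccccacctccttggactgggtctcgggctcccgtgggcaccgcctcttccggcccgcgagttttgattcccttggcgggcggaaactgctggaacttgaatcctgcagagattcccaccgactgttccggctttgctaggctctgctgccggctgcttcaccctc

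The CHR letters (TTTGAA on either strand, or the form TTTAAA, which is its own reverse complement) were in 37 of the 42 promoters (88.1%), against 28.3% of all 33469 promoters of the same length and 20.5% of the 13242 promoters of measured genes. TTTGAA was the commoner form, in 29 promoters, and TTTAAA was in 13. CCAAT on either strand was in 33 (78.6%), against 37.5% of all promoters and 36.8% of those of measured genes. Both were in 30 promoters (71.4%), against 11.3% of all, and in 2 of the member promoters a CHR match and a CCAAT match shared a base. The median GC content of the listed promoters was 58.0%, against 51.7% for all. Between 50 bases upstream and the start, 18 of the 42 held a CHR match (42.9%, against 5.22% of all promoters), and 26 held a CCAAT match between 100 and 50 bases upstream (61.9%, against 10.8%). In the Cdk1 promoter CCAAT matches began 210, 81 and 49 bases upstream and CHR matches 72 and 16, and in the Kif23 promoter the matches began 88 and 79 bases upstream. The matches describe the sequence and show neither occupancy nor a cause of any expression value.

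**Figure D1:**
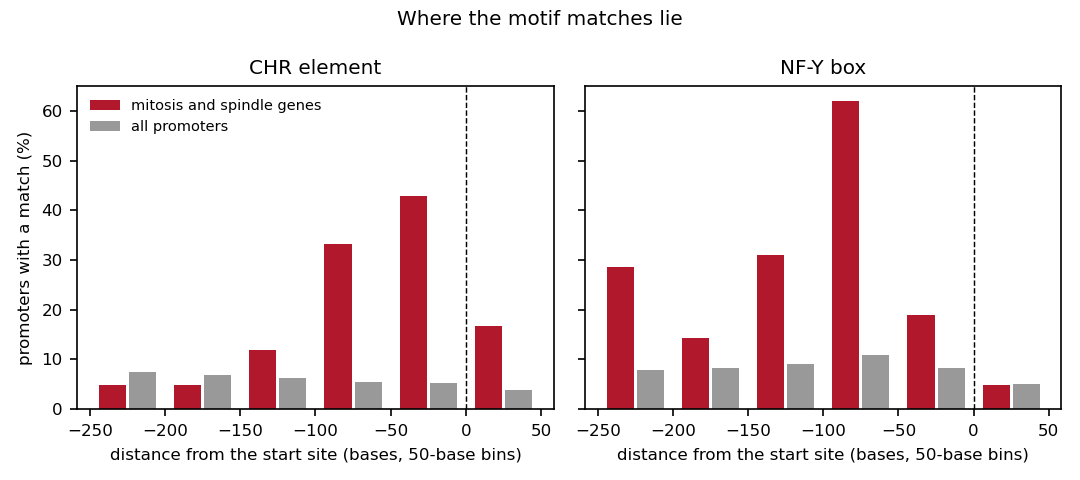
Share of promoters with a CHR match and with a CCAAT (NF-Y box) match in 50-base bins from the annotated start, for 42 RefSeq promoters of listed genes and for all 33469 promoters. The listed genes' CHR matches are most frequent just upstream of the start (42.9% of promoters in the last bin before it) and their CCAAT matches in the bin before that (61.9%).

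Expression of mitosis and spindle genes was lower in the skull than in the limb. By limma with Benjamini-Hochberg adjustment, 44 of the 47 genes were lower in the skull at an adjusted p below 0.05 and 0 were higher, where 18.1% of all genes were lower and 14.2% higher. A difference of at least 2-fold as well was found for 8 genes, all lower in the skull (17%, where 4.47% of all genes were lower by that rule and 3.59% higher). These were Cdc25b, Aurka, Cenpa, Nuf2, Ube2c, Kif22, Hmmr and Kif23. That count rests on single arrays, with 15 genes without calvaria 1, 2 without calvaria 3 and 3 without ulna 5, whereas the count by adjusted p was 41 to 44 with any 1 array left out. The median log2 difference, skull minus limb, was -0.83, or a skull signal of 0.561 times that of the limb. The median over all genes was -0.02. The skull arrays lay entirely below the limb arrays for 43 of the 47 genes (16.4% of all genes did so). In bulk bone, fewer dividing cells and less of these transcripts per cell cannot be told apart.

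The differences were close to each other in size. They ran from -1.40 to -0.11 with an SD of 0.23, whereas those of all genes had an SD of 0.70. This was not particular to the listed genes. The SD was 0.22 for other genes of cohesin and condensin II and 0.26 for DNA replication genes. The ratio of mean skull to mean limb signal (S:L ratio) lay between 0.5 and 0.65 for 30 genes, below 0.5 for 7 and above 0.65 for 10. The threshold of 2-fold thus fell within a dense run of values, with 9 further genes between -0.9 and -1. Mean signals of the listed genes were 25.6 to 1647, and all but Cenpa lay above the median of all scaled signals (33.8), so that few were near background. The highest signal of a control absent from the samples was 8.34. Among the 9831 genes whose mean signal lies in the same range, 24.2% were lower in the skull and 18.7% higher.

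**Figure D2:**
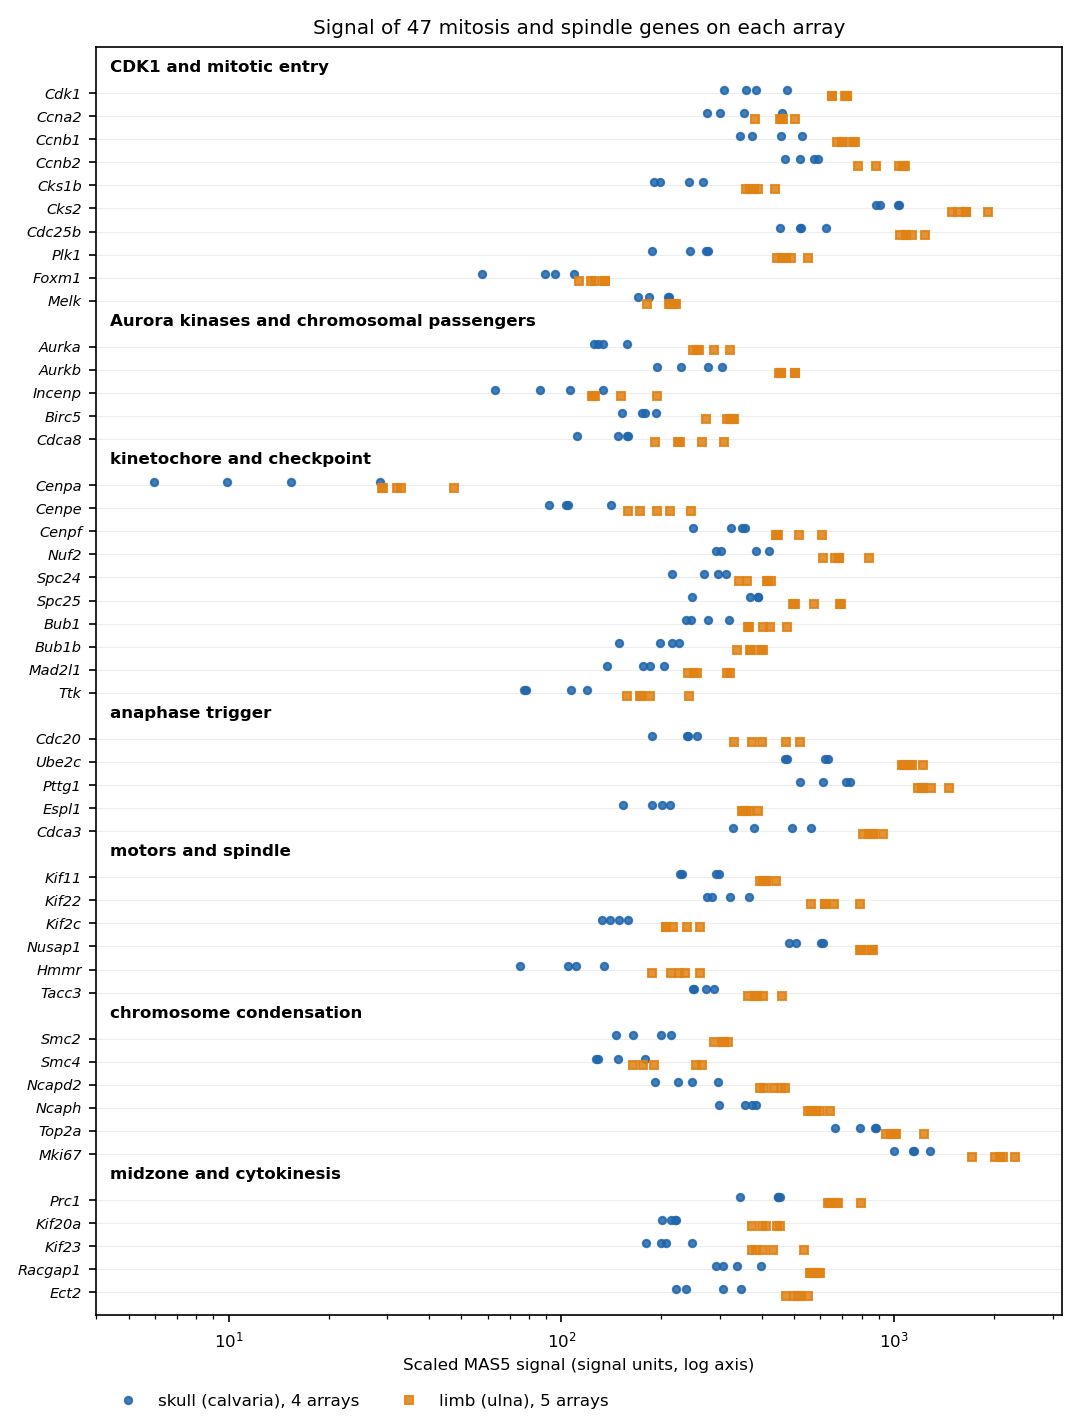
Scaled signal (log axis) of each of the 47 measured genes on the 4 skull (calvaria) and 5 limb (ulna) arrays, 1 point per array, grouped by role in mitosis. The skull points lie below the limb points for 43 genes, and Melk, Ccna2, Incenp and Smc4 overlap.

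**Figure D3:**
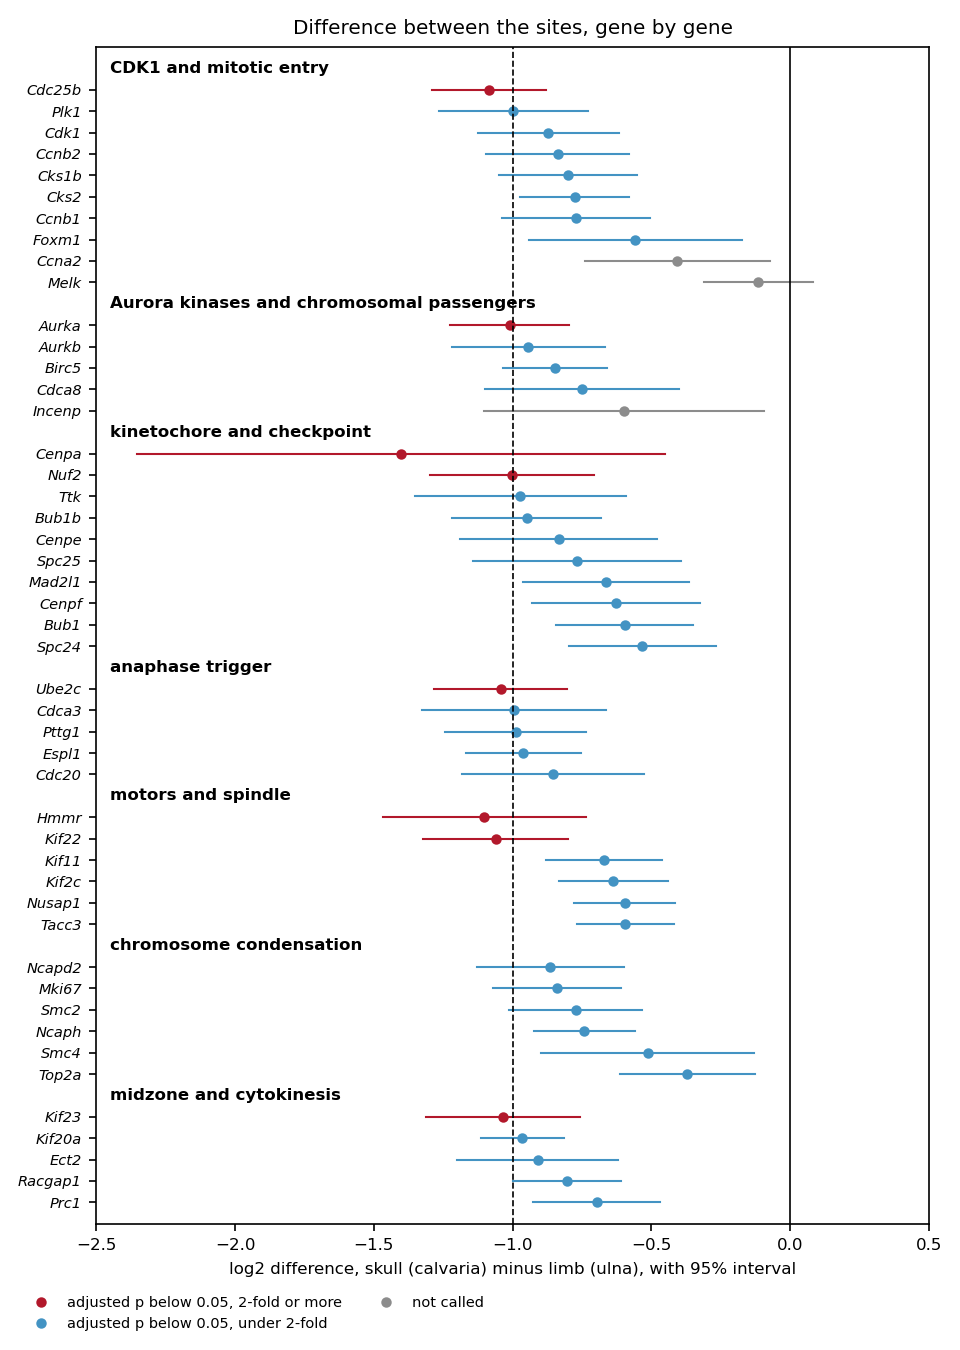
Log2 difference, skull minus limb, of the 47 measured genes with 95% confidence intervals from limma, grouped by role. Every estimate lies below 0, from -1.40 (Cenpa) to -0.11 (Melk), and 8 pass the line of 2-fold with an adjusted p below 0.05.

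CDK1 and its partners at mitotic entry were lower in the skull for 8 of 10 genes, with 1 of them at 2-fold (median log2 difference -0.79). Cdc25b, the phosphatase that removes inhibitory phosphates from CDK1, had 520.1, 525, 455 and 623 signal units in the skull, against 1046, 1089, 1134, 1088 and 1240 in the limb. Every limb array was far above the highest skull array, and the S:L ratio was 0.474 (log2 difference -1.08 ± 0.09 SE, adjusted p = 5.06e-05). Cks2, a small subunit of CDK complexes and the brightest of the group, had 1033, 1028, 882 and 906 in the skull, against 1914, 1643, 1641, 1492 and 1556 in the limb. Those sets stood apart as well (-0.78 ± 0.09, adjusted p = 0.0002). Its relative Cks1b, which also works in degradation of the CDK inhibitor p27, had 267, 189.7, 242 and 197 in the skull, against 379, 358, 389, 369 and 440.2 in the limb (-0.80 ± 0.11). Calvaria 2 and calvaria 4 were the low arrays of this gene. A dimmer probe set of Cks1b differed by -0.21 ± 0.11 and was not called, and the mean of its probe sets differed by -0.51.

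Cdk1 itself, the kinase that drives mitosis, had 478, 385, 359 and 309 in the skull, against 651, 724, 722, 651 and 713 in the limb (-0.87 ± 0.11, adjusted p = 0.000427). The limb arrays lay near each other, and calvaria 1 stood highest in the skull. Ccnb1 and Ccnb2, the B-type cyclins that activate CDK1, were both lower in the skull, by log2 differences of -0.77 ± 0.12 and -0.84 ± 0.11. Plk1, the Polo-like kinase of entry and spindle assembly, lay just short of the bound of 2-fold (-0.997 ± 0.118, S:L ratio 0.505), with 276, 272, 188 and 243 in the skull, against 445, 473, 489.7, 459.5 and 552 in the limb. Cdk1, Ccnb1, Ccnb2 and Plk1 were chosen after their values were seen.

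Foxm1, the transcription factor of late cell cycle genes, was dim and less certain. Its signals were 89.5, 95.9, 57.6 and 109 in the skull, against 135, 126, 136, 122 and 113 in the limb. Calvaria 4 nearly reached ulna 5, and the difference was -0.56 ± 0.17 (adjusted p = 0.0328). It passed under 10 of 21 alternatives in processing, and the adjusted p was 0.0578 to 0.0709 without calvaria 1 or without any 1 of ulna 1 to 4. Its second, dimmer probe set differed by -0.17 ± 0.27, and the mean of both (-0.36) was not called (adjusted p = 0.165). Melk, a kinase of proliferating cells, was the gene with the smallest difference, with 209, 211, 183 and 170.0 in the skull, against 213, 218, 181, 222 and 211 in the limb. The sites overlapped (-0.11, 95% interval -0.31 to 0.08, adjusted p = 0.371). Ccna2, the cyclin of S phase and early mitosis, named because it is 1 of the 3 not called, had 301, 461, 274 and 355 in the skull, against 504, 465, 461, 382 and 454 in the limb. Calvaria 2 reached the limb's range (-0.41, 95% interval -0.74 to -0.07, adjusted p = 0.0653), and without it the difference passed (-0.55, adjusted p = 0.00774).

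Aurora kinases and the chromosomal passenger complex, which corrects faulty attachments and later steers cytokinesis, were lower in the skull for 4 of 5 genes (median -0.85). Aurka, the centrosomal Aurora kinase, had 157, 133, 126 and 129 in the skull, against 249, 256, 321, 260.0 and 288 in the limb. The highest skull signal was well below the lowest limb signal, and the S:L ratio was 0.496 (-1.01 ± 0.10, adjusted p = 8.08e-05). Aurkb, the catalytic subunit of the passenger complex, had 304, 276, 228 and 194 in the skull, against 504, 458, 505, 452 and 459 in the limb (-0.94 ± 0.12). Birc5 (survivin), which places the complex at centromeres, had 178, 175, 152 and 193 in the skull, against 273, 329, 315, 329 and 322 in the limb (-0.85 ± 0.08). Ulna 1 was the low limb array for Birc5 and still exceeded every skull array. Incenp, the scaffold of the complex, was the exception. It had 106, 133, 63.0 and 86.1 in the skull, against 124, 124, 151, 127 and 194 in the limb. Calvaria 2 lay inside the limb's range and the test was not passed (-0.60, 95% interval -1.10 to -0.09, adjusted p = 0.071), although the point estimates of its 3 probe sets (-0.67, -0.60 and -0.54) were near each other. Without calvaria 2 it passed (-0.77, adjusted p = 0.0285).

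All 10 kinetochore and checkpoint genes were lower in the skull (median -0.80), 2 of them by 2-fold. Nuf2, part of the NDC80 complex that grips microtubules, had 420.4, 386, 301 and 292 in the skull, against 681, 611, 685, 664 and 839.7 in the limb (-1.002 ± 0.131, adjusted p = 0.000445, S:L ratio 0.502). Its ratio of mean signals lies just above 0.5 although the difference of mean log2 signals passes 2-fold. Ulna 5 was the highest limb array for it. Spc25, of the same complex, had 389, 391, 370.4 and 248 in the skull, against 575, 688, 505, 496 and 695 in the limb (-0.77 ± 0.17). Calvaria 4 stood far below the other skull arrays. Spc24, its binding partner, had the smallest difference of the group (-0.53 ± 0.12, adjusted p = 0.00755), with 296, 313, 268 and 215 in the skull, against 342, 427, 414, 362 and 417 in the limb.

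Cenpa, the histone H3 variant that marks centromeres, had the largest estimate of all listed genes and the weakest signal. It had 28.6, 9.87, 5.96 and 15.4 in the skull, against 47.6, 32.1, 32.9, 29.2 and 28.8 in the limb. Calvaria 1 nearly met ulna 5, and calvaria 3 was below the highest absent control. The difference was -1.40 ± 0.42 (95% interval -2.35 to -0.45, adjusted p = 0.0312), so its size is poorly resolved, and its call held under 11 of 21 alternatives, with adjusted p of 0.0514 to 0.082 without calvaria 2, calvaria 3 or any 1 of the limb arrays. The checkpoint kinases and sensors Bub1, Bub1b, Mad2l1 and Ttk, chosen after their values were seen, differed by -0.60, -0.95, -0.66 and -0.97. Their skull signals were 238 to 319.8, 149 to 225, 137 to 203 and 77.4 to 119.7 in that order, and their limb signals 365 to 476, 337 to 404, 241 to 320.5 and 158 to 242.

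The genes of the anaphase trigger had the lowest median of the role groups (-0.99), with all 5 lower in the skull and the narrowest spread (SD 0.07). Ube2c, the ubiquitin-conjugating enzyme that works with the APC/C, had 619.9, 634, 469 and 475 in the skull, against 1134, 1058, 1222, 1069 and 1129 in the limb. Its S:L ratio was 0.490 (-1.04 ± 0.11, adjusted p = 0.000115). Pttg1 (securin), the inhibitor of separase that the APC/C removes, had 717, 736, 613 and 521 in the skull, against 1220, 1184, 1464, 1214 and 1294 in the limb (-0.99 ± 0.11). Calvaria 3 and 4 were the low skull arrays for both genes. Espl1, the separase that cuts cohesin, and Cdca3 were chosen after their values were seen and differed by -0.96 ± 0.09 and -0.99 ± 0.15. Cdca3 takes part in degradation of the kinase Wee1, a brake of mitotic entry, and is in this group only by the way the list was drawn up.

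Cdc20, the activator that brings substrates to the APC/C, had the smallest difference of that group. It had 241, 256, 239 and 187 in the skull, against 402, 330.3, 473, 374 and 521 in the limb (-0.86 ± 0.14, adjusted p = 0.00188). Its 5 probe sets gave differences of -0.97 to -0.13, and 2 of the 5 were called lower with p adjusted over all probe sets. The next brightest, with a mean signal of 249, differed by -0.24 ± 0.18, and the mean of all 5 differed by -0.56 (adjusted p = 0.0199). Which of them measures Cdc20 best was not tested.

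All 6 motors and spindle proteins were lower in the skull (median -0.65). Hmmr, a microtubule-binding protein of spindle poles, had 135, 111, 75.2 and 105 in the skull, against 236, 226, 188, 214 and 260.4 in the limb (-1.10 ± 0.16, adjusted p = 0.000835, S:L ratio 0.473). Its second, dimmer probe set was also lower in the skull but by less (-0.63 ± 0.13), and the mean of both (-0.86) does not reach 2-fold. Kif22, a chromosome-bound kinesin that pushes chromosome arms, had 367, 322, 274 and 284 in the skull, against 619, 619.5, 659, 563 and 791 in the limb (-1.06 ± 0.12). The lowest limb array of Kif22 stood well above its highest skull array. Nusap1, which bundles spindle microtubules, had 602, 614, 509 and 482 in the skull, against 863, 789, 838, 799 and 859 in the limb (-0.60 ± 0.08). Tacc3, which crosslinks kinetochore fibres, had 287, 249, 273 and 249.8 in the skull, against 461, 365, 405, 387 and 382 in the limb (-0.59 ± 0.08). Its second probe set differed by -0.29 ± 0.16 and was not called. For Kif11, the motor that separates spindle poles, the 2 probe sets were both called but differed in size (-0.67 ± 0.09 for the brighter, -1.29 ± 0.11 for the other).

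Chromosome condensation genes were lower in the skull for 6 of 6, none by 2-fold (median -0.76). Mki67, the coat protein of mitotic chromosomes and a common marker of dividing cells, had 1284, 1142, 1000 and 1151 in the skull, against 2010, 2123, 2315, 1714 and 2089 in the limb. Every limb array exceeded every skull array (-0.84 ± 0.10, adjusted p = 0.000297). Top2a, the topoisomerase that untangles sister DNA, had 882, 878, 665 and 788 in the skull, against 1009, 946, 1011, 978 and 1234 in the limb. The sites stood apart by a narrow margin (-0.37 ± 0.11, adjusted p = 0.0269), and the call held under 14 of 21 alternatives, with adjusted p of 0.059 without calvaria 3 and 0.0578 without calvaria 4. A second, dimmer probe set of Top2a was lower by more (-0.54 ± 0.13) and was called with p adjusted over all probe sets. Smc4, a core ATPase of condensin, was the called gene whose sites overlapped (129, 127, 178 and 148 in the skull, against 176, 164, 190.3, 264 and 254 in the limb, -0.51 ± 0.17, adjusted p = 0.0462). It passed under 6 of 21 alternatives, and the adjusted p was 0.0678 to 0.12 without calvaria 1, 2 or 4 or ulna 3, 4 or 5. A second, dimmer probe set of Smc4 differed by -0.76 ± 0.24, and neither was called with p adjusted over all probe sets. The other condensin genes Smc2, Ncapd2 and Ncaph differed by -0.77, -0.86 and -0.74. The condensin genes were chosen after their values were seen.

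The 5 measured genes of the spindle midzone and cytokinesis were lower in the skull (median -0.91). Kif23, the kinesin of the centralspindlin complex, had 246, 199, 179 and 207 in the skull, against 405, 434, 384, 375 and 535 in the limb (-1.03 ± 0.12, adjusted p = 0.000275, S:L ratio 0.487). Racgap1, its partner in that complex, had 399, 337, 291 and 306 in the skull, against 598, 574, 562, 561 and 592 in the limb (-0.80 ± 0.09). For both, calvaria 1 was the highest skull array. Prc1, which bundles antiparallel microtubules of the midzone, had 449, 448, 345 and 454 in the skull, against 674, 632, 679, 643 and 798 in the limb (-0.70 ± 0.10). Calvaria 3 was low and ulna 5 high. Kif20a, a midzone kinesin with the smallest adjusted p of the listed genes (2.15e-05), had 222, 219, 214 and 200.5 in the skull, against 412, 374, 446, 402 and 455 in the limb. It and Ect2, the exchange factor that activates RhoA (-0.91 ± 0.13), were chosen after their values were seen.

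Calvaria 3 and calvaria 4 stood lowest of all arrays. The mean log2 signal of the 47 genes was 8.16, 8.04, 7.78 and 7.86 in the skull, against 8.76, 8.70, 8.76, 8.72 and 8.89 in the limb, and the group means were 7.96 ± 0.17 and 8.76 ± 0.07 (SD, n = 4 and 5). Calvaria 3 was the lowest skull array for 25 of the genes and calvaria 4 for 19, and calvaria 1 was the highest for 29. In the limb, ulna 5 was the highest for 24. Calvaria 3 and 4 also had the highest log2 ratios of 3′ to 5′ beta-actin signal, a sign of RNA quality: 0.75, 0.84, 1.04 and 1.02 in the skull, against 0.57 to 0.86 in the limb. The Gapdh ratio was 0.28 to 0.59 in the skull and 0.21 to 0.37 in the limb. The part of RNA quality in the differences was not tested. With calvaria 3 and 4 left out together, 40 genes were still lower in the skull by adjusted p, where 13.1% of all genes were. The median was -0.68, and 2 genes were lower by 2-fold, a share near the 3.54% of all genes. That choice was made after seeing that these arrays had the highest ratios and the lowest signals of the listed genes.

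**Figure D4:**
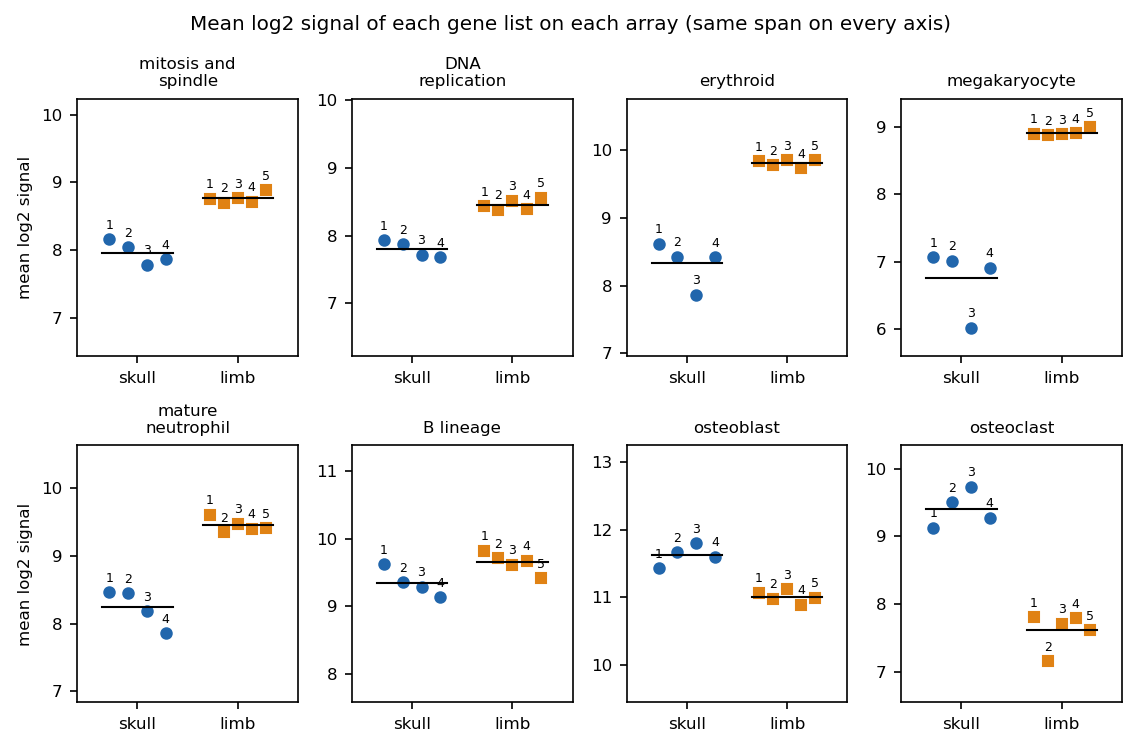
Mean log2 signal per array of the 47 mitosis and spindle genes, of DNA replication genes and of 6 marker lists, for skull (calvaria) arrays 1 to 4 and limb (ulna) arrays 1 to 5, with a line at each site's mean. The mitosis means are 7.78 to 8.16 in the skull, below all limb arrays (8.70 to 8.89).

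Further probe sets of the same genes, read on the same arrays, ran the same way. Of the 47 genes, 16 had more than 1 probe set, and the 21 further probe sets all had a negative difference. With p adjusted over all probe sets, 12 of the 21 were lower in the skull and 0 higher, and the rest were not called. By that adjustment 16.6% of all genes, each read from its brightest probe set, were lower. Calls differed within Cks1b, Foxm1, Cdc20 and Tacc3.

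Cell cycle genes outside the list were taken as 179 genes in 8 groups. Of these 125 (69.8%) were lower in the skull by adjusted p and 3 (1.68%) higher (median -0.61), where 18.1% of all genes were lower and 14.2% higher. At 2-fold 16 (8.94%) were lower and 2 higher, where 4.47% of all genes were lower and 3.59% higher. Of the 179, 27 were lower at 2-fold without calvaria 1 and 10 without calvaria 3. By adjusted p, 6 of them were higher without calvaria 4 and 5 without ulna 3. Further centromere, kinetochore and checkpoint genes were close to the listed ones, with 25 of 31 lower (6 by 2-fold, median -0.86). Ska1, which couples kinetochores to shrinking microtubules, had 180.0, 186, 146 and 142 in the skull, against 375, 330.1, 361, 345 and 384 in the limb (-1.14 ± 0.09). Sgo1 (shugoshin), the guard of centromeric cohesion, and Cenpu, of the inner kinetochore, differed by -1.16 ± 0.10 and -1.30 ± 0.17. Cenpb, Zwint and Zw10, chosen after their values were seen, differed by 0.00, 0.06 and -0.12 and were not called. Further spindle, centrosome and cytokinesis genes were lower for 28 of 36 (median -0.75), with the kinesins Kif18b and Kif18a, which dampen chromosome oscillation or shorten microtubules, at -1.05 ± 0.14 and -1.12 ± 0.23.

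Most genes of the APC/C itself were not called. Of 17 genes for the complex and its regulators, 6 (35.3%) were lower and 0 higher, where 18.1% of all genes were lower and 14.2% higher. The median was -0.10, beside -1.04 and -0.86 for the listed partners Ube2c and Cdc20. Anapc5, a scaffold subunit, had 974.9, 1126, 1085 and 913 in the skull, against 839, 867, 957, 855 and 899 in the limb (0.21 ± 0.07, adjusted p = 0.0561). Ube2s, which extends ubiquitin chains with the complex, had 1022, 1009, 819 and 939 in the skull, against 1508, 1343, 1472, 1345 and 1446 in the limb (-0.59 ± 0.08, adjusted p = 0.000449). The other called genes were the inhibitor Fbxo5 (-0.90), the activator Fzr1 (-0.87) and the subunits Cdc27 (-0.49), Anapc7 (-0.36) and Anapc16 (-0.30), chosen after their values were seen. Cohesin and condensin II genes were lower for 11 of 14 (median -0.50), with the cohesin acetyltransferase Esco2 by 2-fold (169, 168, 128 and 143 in the skull, against 370.2, 354, 342, 259.7 and 301 in the limb, -1.10 ± 0.12). Brakes and regulators of mitotic entry were lower for 3 of 7 (median -0.30), among them Ensa, an inhibitor of the phosphatase PP2A-B55 (-0.30 ± 0.08). Its relative Arpp19 was at 0.22 ± 0.11 and was not called.

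DREAM, MYB and E2F factors, which time genes of several cell cycle phases, were lower in the skull for 11 of 18 (61.1%, median -0.63). Over all genes 18.1% were lower. Tfdp2, the dimer partner of E2F proteins, had 337, 273, 263 and 306 in the skull, against 579, 641, 589.7, 600.5 and 580.3 in the limb (-1.03 ± 0.08). E2f8, a repressor of the E2F family, had 194, 158, 136 and 183 in the skull, against 346, 367, 337, 346 and 343 in the limb (-1.06 ± 0.10). Mybl2 (B-Myb), the activator in the MuvB complex, was at -0.94 ± 0.09 and was named after its values were seen. Of the Lin genes in the group, also named after their values were seen, Lin54 was lower (-0.63). Lin9 (-0.62), Lin37 (-0.13) and Lin52 (-0.57) were not called. DNA replication genes were lower for 34 of 38 (3 by 2-fold, median -0.67). Orc6 and Orc1 of the origin recognition complex differed by -1.06 ± 0.10 and -1.28 ± 0.18, and Tyms, which makes thymidylate, by -1.11 ± 0.13.

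Regulators of G1 moved in both directions. Of 18 genes, 7 (38.9%) were lower in the skull (2 by 2-fold) and 3 (16.7%) higher (2 by 2-fold), with a median of -0.13. Over all genes 18.1% were lower and 14.2% higher, so the share higher was near that of all genes. Ccne1 and Ccne2, the E-type cyclins of entry into S phase, were lower by 2-fold. Ccne1 had 204, 166, 170.5 and 228 in the skull, against 387, 461, 485, 397 and 495 in the limb (-1.22 ± 0.12), and Ccne2 differed by -1.09 ± 0.13. Ccnd1, the D-type cyclin that answers growth signals, was higher in the skull, with 182, 208, 223 and 216 there, against 85.3, 93.1, 61.6, 79.0 and 81.7 in the limb. Every skull array was above every limb array (1.38 ± 0.12, adjusted p = 5.74e-05). The other 2 higher genes, the CDK inhibitors Cdkn1a (0.73 ± 0.20) and Cdkn2a (1.57 ± 0.40), were named for completing that count. Cdkn2a had 5.27 to 14.2 in the skull and 1.42 to 6.91 in the limb, near or below the highest absent control, so its size is not resolved.

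**Figure D5:**
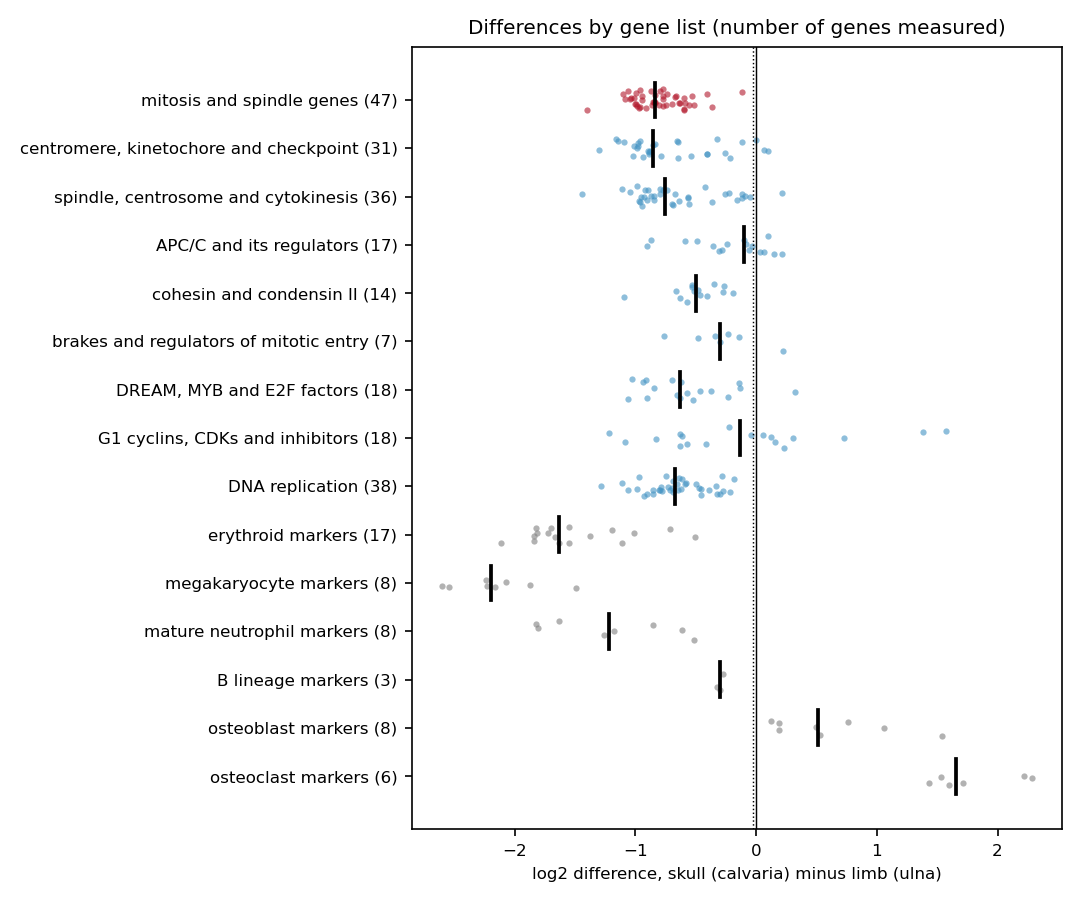
Log2 difference, skull minus limb, of each measured gene (points) and the median (line) for the mitosis and spindle genes, for 8 groups of other cell cycle genes and for marker lists, with a dotted line at the median of all genes. Medians are -0.83 for the mitosis and spindle genes, -0.67 for DNA replication, -0.13 for G1 regulators and -0.10 for the APC/C.

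Most markers of erythroid cells, megakaryocytes, neutrophils and muscle were lower in the skull, as the listed genes were, whereas B lineage markers were not called. Over all genes 18.1% were lower and 14.2% higher. Of 22 erythroid markers listed 17 were measured, and 16 were lower in the skull (15 by 2-fold, median -1.63). Their summed signal was 9179 to 11450 in the skull and 21510 to 25770 in the limb. Ahsp, the chaperone of alpha-globin, had 2099, 1815, 1727 and 1840 in the skull, against 4240, 3898, 4527, 3302 and 4269 in the limb. Megakaryocyte markers were lower for 7 of 8 measured (of 10 listed, median -2.20), with sums of 1460 to 2172 in the skull and 6348 to 7025 in the limb. Pf4, a chemokine of platelets, and Tubb1, their beta-tubulin, differed by -1.49 and -2.24. Neutrophil markers were lower for 8 of 8 in the mature list (of 10 listed, median -1.22, sums of 8961 to 11100 in the skull and 14590 to 19090 in the limb) and for 2 of 2 in the early list (of 7 listed, sums of 1198 to 1510 and 1835 to 2204 in the same order). The 3 measured B lineage markers (of 10 listed) had a median of -0.30 with 0 called (sums of 1700 to 2383 in the skull and 2098 to 2734 in the limb). The part of these cells in the lower signals of mitosis genes was not tested.

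Skeletal muscle markers were lower in the skull for 11 of 12, with a median of -7.12. Their sums were 692 to 793 in the skull and 10240 to 25540 in the limb. The exception was Myh1 (0.59, called higher). It was read from the brightest of its 5 probe sets, and whether that one measures Myh1 in the skull was not tested. Most of the skull sum was Myh1 (532 to 696), and the other 11 markers summed to 97.2 to 160.0 in the skull and 9866 to 25030 in the limb. The defining genes Acta1 and Myl1 were at 4.44 to 17.8 and 5.87 to 14.7 in the skull, near the level of absent controls, against 2345 to 4506 and 1385 to 3366 in the limb. Ulna 5 had the lowest muscle mean of the limb arrays and the highest mean of the mitosis genes. Muscle's part in the differences was not tested. Osteoclast markers ran the other way, with 6 of 6 measured (of 10 listed) higher in the skull (median 1.66, sums of 9824 to 14320 in the skull and 3596 to 4433 in the limb), and so did 5 of 8 osteoblast markers (of 11 listed, median 0.51, sums of 32860 to 42700 and 24090 to 33020). The brightest osteoblast genes, Col1a1 and Bglap, were not called (0.19 each). Chondrocyte markers were lower for 3 of 8 (37.5%, of 10 listed, median -0.42). T cell markers were lower for 1 of 6 (16.7%, median -0.11), near the 18.1% of all genes. Chondrocyte sums were 125 to 156 in the skull and 189 to 311 in the limb. T cell sums were 308 to 391 in the skull and 409 to 548 in the limb. Most of the T cell sum was Cd3g (110.1 to 181.1 and 175.9 to 311.5) and Lck (154.7 to 206.1 and 176.1 to 210.2). Mean signals of Col9a1, Matn1 and Cd2 lay below the highest absent control (8.34) in both sites, so the sizes of their differences are not resolved.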

How the data were processed

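Total RNA of skull (calvaria) and limb (ulna) bone was labelled by the one-cycle protocol and hybridised to Affymetrix Rat Genome arrays, 4 and 5 in number. The deposited values are intensities, 1 linear MAS5 signal per probe set and array, computed by the authors, and the array medians as deposited were 33.0 to 36.6. Samples were grouped by title and source name. The numbers of arrays limit the precision. Arrays were scaled to a common median, signals floored at the 10th percentile (2.51) and taken to log2, so that differences of genes near the floor are understated. Sites were compared with limma 3.58.1 (R 4.3.3; lmFit, eBayes with intensity trend) over 31042 probe sets. Benjamini-Hochberg adjustment was over 1 probe set for each of 14217 genes, and tests were two-sided. The script was tested on simulated data. Probe sets were named by the platform annotation, with 20826 naming 1 gene, 436 several and 9780 none. Of those naming 1 gene, 20758 were matched to RefSeq.

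The gene lists and the listed genes were chosen with earlier results of these data known. Genes were named by rule: within each role the genes past both thresholds (at most 4), the 2 brightest and the smallest difference; the 3 largest differences overall; genes whose probe sets disagree in call; and in the other lists the 3 smallest adjusted p past both thresholds or the 2 brightest. Others were chosen after their values were seen, as were the printed promoters. The study's methods call genes by analysis of variance with Benjamini-Hochberg adjustment, which was run as an alternative on the same values, beside other scalings, floors, filters, probe set rules, a replicate block and left-out arrays.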

Additional observations from a re-analysis of the deposited data

Results flagged for a closer look

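In each site, the highest and lowest array of each of the 47 genes was compared with the rest by Dixon's ratio. Of 94 groups 6 held an array beyond the 95% critical value, where chance gives about 1 in 20. In the skull, Spc25 had a signal of 247.8 on calvaria 4, where the other skull arrays gave 370.4 to 391.4, and Prc1 had 345.4 on calvaria 3, where the others gave 448.5 to 454.1. In the limb, Melk had 180.7 on ulna 3 (210.6 to 221.9 on the others), Birc5 had 272.6 on ulna 1 (314.9 to 329.3), Cenpa had 47.57 on ulna 1 (28.84 to 32.91) and Top2a had 1234 on ulna 5 (946.2 to 1011). Spc25, Prc1 and Birc5 kept their calls with each array left out in turn. Cenpa and Top2a did not with some of them.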

How the results depend on the processing

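The count of mitosis and spindle genes lower in the skull by adjusted p stayed between 40 and 46 under every alternative run except ulna 5 alone as limb. That fit has 1 limb array, assumed to vary like the skull, and gave far fewer. No listed gene was called higher under any of the 21 alternatives. The count at 2-fold, 8, was less stable: 4 with signals as deposited, 2 with quantile normalization, 3 with log2(signal + 16), and 2 with calvaria 3 and 4 left out together, which also moved the median to -0.68 and turned Melk to 0.0131 (adjusted p = 0.941 by limma). With single arrays left out it ran from 2 (without calvaria 3) to 15 (without calvaria 1), with 3 without ulna 5. By the methods' test Cenpa and Foxm1 kept their direction and lost their calls (adjusted p = 0.0554 and 0.0621 by that test, in place of limma), and the other listed genes named by rule kept direction and call.

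Among the 179 other cell cycle genes, 3 were higher by adjusted p, but 8 with signals as deposited, 9 with quantile normalization, 1 with ulna 5 alone, and 3 to 6 with single arrays left out (6 without calvaria 4, 5 without ulna 3). The count of genes lower at 2-fold, 16, was 7 with log2(signal + 16), 10 with ulna 5 alone, 5 without calvaria 3 and 4, and 10 (without calvaria 3) to 27 (without calvaria 1) with single arrays left out. The count higher at 2-fold was 1 with the floor at the 25th percentile, with log2(signal + 16), with dim genes left out and with ulna 5 alone. With ulna 5 alone, 22 were lower by adjusted p. The causes were not tested.

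Whether same-numbered skull and limb arrays came from the same pool of rats is not stated. The correlations of same-numbered arrays, as deviations from the site means over all genes, were 0.03, -0.02, -0.03 and 0.05. Calvaria 1 and 4 correlated best with their own number, and calvaria 2 and 3 did not. Correlations this small cannot show whether the pools were shared. With the replicate block, which leaves out ulna 5, 41 listed genes were lower by adjusted p and 4 at 2-fold (median -0.79).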
